A study of Mus musculus with 22 samples.

Results

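The arcuate nucleus (ARC) was compared with the paraventricular nucleus (PVH) of the hypothalamus in the male offspring of obese mothers. The comparison takes the 10 Off-Ob small RNA libraries of a series of 22, 5 of the ARC and 5 of the PVH, and all 172 miRNAs listed for both nuclei. The libraries came from 6 C57BL/6J mice. Mice F12A, F13A, F41A and F42A gave both nuclei, F6A gave only an ARC library, and F14A gave only a PVH library. Off-Ob mice were born to mothers made obese by diet, were weaned onto chow and were 8 weeks old, and Off-C mice, the 12 other libraries, differed in having lean mothers on a control diet. Tissue was cut from frozen brain sections by laser capture, and 1 male was taken per litter. All ARC libraries came from sequencing pool 14726 and all PVH libraries from pool 14724, so the nucleus and the pool cannot be told apart in any value below.

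The ARC lies at the base of the hypothalamus and holds the AgRP and POMC neurons that respond to leptin, insulin and nutrients. These neurons project to the PVH, where neurons that carry the melanocortin receptor MC4R, or that make CRH, TRH or oxytocin, govern satiety and endocrine output. miRNAs are short RNAs that lower the stability and translation of mRNAs with a match to their seed, bases 2 to 8 from the 5′ end. In captured tissue, fewer cells of a type and less RNA per cell cannot be told apart.

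The miRNAs on which the comparison turns are printed so that their seeds can be compared, 5′ to 3′, with the seed in capitals. The mature sequences are those of RefSeq on GRCm38.p6, in which 148 of the 172 listed names were found, and miR-126-3p was found there as miR-126a-3p.
miR-7b-5p: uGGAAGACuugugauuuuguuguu
miR-7a-5p: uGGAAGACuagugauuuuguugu
miR-92b-5p: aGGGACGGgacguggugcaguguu
miR-505-5p: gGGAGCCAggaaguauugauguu
miR-126-3p: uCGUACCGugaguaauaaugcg
miR-128-3p: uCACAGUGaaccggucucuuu
miR-218-5p: uUGUGCUUgaucuaaccaugu
miR-9-5p: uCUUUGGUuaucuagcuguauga
let-7c-5p: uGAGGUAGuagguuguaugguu
let-7e-5p: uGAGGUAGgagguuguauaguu
let-7g-5p: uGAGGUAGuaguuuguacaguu

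miR-7b-5p and miR-7a-5p share the seed GGAAGAC and, over the bases they have in common, differ by A10U, counted from 1 at the 5′ end of miR-7a-5p. All 10 measured let-7 members share the seed GAGGUAG. Reads of such near-identical miRNAs can be counted for one another, and the rule for reads that match several miRNAs is not given in the sources used here, so the split between miR-7a-5p and miR-7b-5p and among let-7 members is uncertain. miR-7b-5p lies at chr17:56243017-56243040 on the plus strand, outside any annotated gene of that strand. miR-7a-5p is encoded in an intron of Hnrnpk at chr13:58392841-58392863 on the minus strand and again at chr7:78888295-78888317 on the plus strand. miR-92b-5p lies at chr3:89227165-89227188 on the minus strand, outside a gene of that strand. miR-126-3p lies within Egfl7, a gene of endothelial cells, at chr2:26591402-26591423 on the plus strand, and overlaps an exon of one of its transcripts. miR-128-3p is encoded in introns of R3hdm1 and Arpp21, and miR-218-5p in introns of Slit2 and Slit3.

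The level of a miRNA is given as log2(CPM + 1), where CPM are read shares (counts per 1000000 reads) after scaling all 22 libraries together, and differences are ARC minus PVH on that scale. Depth ran over 22680 to 91790 reads among the 5 ARC libraries and over 25819 to 61476 reads among the 5 PVH libraries of Off-Ob mice. A single read was thus worth 11.7 to 104 CPM in an ARC library and 16.0 to 29.7 CPM in a PVH library. The ARC libraries of F42A and F6A stood apart from the other 3. let-7 reads made up 79.1% of the ARC library of F42A and 64.2% of that of F6A, against 34.7% to 40.3% in the other ARC libraries and 31.7% to 38.7% in the PVH libraries. 20 of the 172 miRNAs had no read in the ARC library of F42A, the shallowest of the 10, against 0 to 2 in the other ARC libraries and 0 to 1 in the PVH libraries. The median SD of a miRNA was 0.82 among the Off-Ob ARC libraries and 0.39 among the Off-Ob PVH libraries, and 0.44 and 0.47 in the ARC and PVH of Off-C mice. Results are therefore also given with 3 ARC libraries, without those of F42A and F6A.

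1 of the 172 miRNAs (0.581%) differed between ARC and PVH of Off-Ob mice past an adjusted p of 0.05 by limma. It was higher in the ARC. The fit held the mouse as a random block. Without adjustment, 32 miRNAs (18.6%) had a p under 0.05, of which 14 were higher in the ARC (8.14%) and 18 lower (10.5%). Over all 172 miRNAs the median difference was -0.13, with 74 above 0 and 98 below. With 3 ARC libraries, 8 miRNAs (4.65%) passed, 3 higher and 5 lower in the ARC, and the median difference was -0.0076. The split of the calls also depended on the scaling. In the deposited values, which set each nucleus to its own scale, the median shifted to -0.52 and 15 miRNAs passed, 1 higher and 14 lower in the ARC. In plain CPM the median was -0.70 and none passed, against 43 at an unadjusted p under 0.05.

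**Figure D1:**
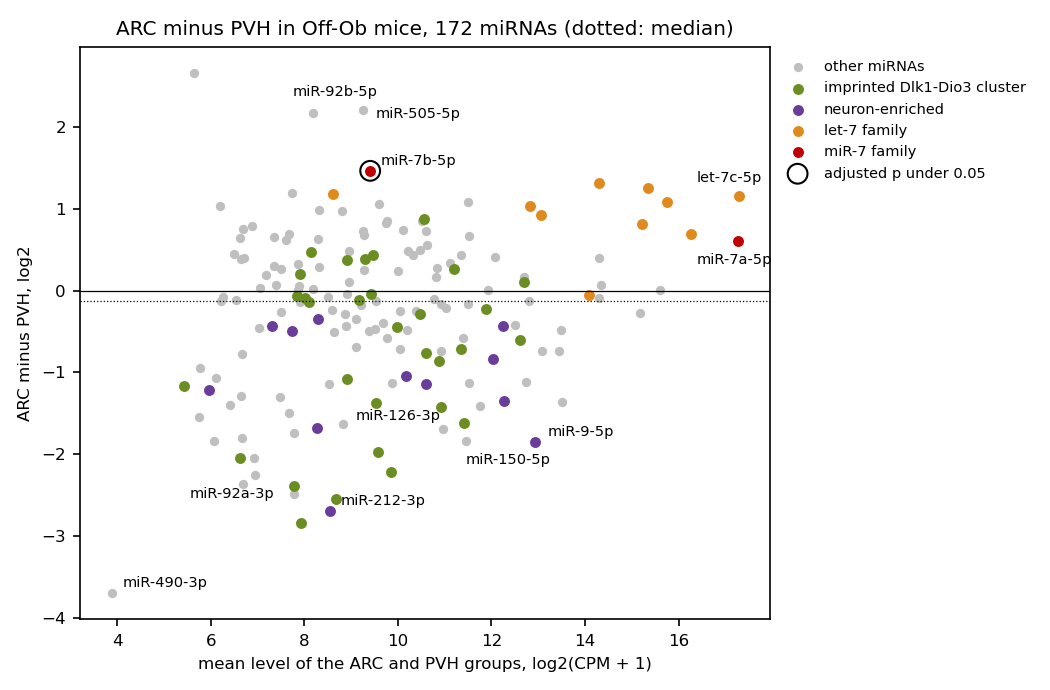
ARC minus PVH in Off-Ob mice (log2, vertical axis) against the mean of the ARC and PVH group levels (log2(CPM + 1), horizontal axis) for each of 172 miRNAs, coloured by list. The ringed point, miR-7b-5p at 1.47, is the only one past an adjusted p of 0.05, and 9 of the 10 let-7 members lie above 0 while the 12 neuron-enriched miRNAs lie below it.

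miR-7b-5p, the scarcer of the 2 measured miR-7 members, a family enriched in hypothalamic and neuroendocrine cells, was the miRNA that passed. Values follow the order F6A, F12A, F13A, F41A and F42A in the ARC and F12A, F13A, F14A, F41A and F42A in the PVH here and below. miR-7b-5p stood at 10.37, 10.35, 9.87, 10.23 and 9.88 in the ARC libraries, against 9.01, 8.90, 8.51, 8.65 and 8.32 in the PVH libraries. Every ARC library lay above every PVH library, and the ARC libraries of F42A and F6A lay close to the other 3. It averaged 10.14 ± 0.25 over the ARC libraries, against 8.68 ± 0.28 over the PVH libraries (SD, n = 5 each), a difference of 1.47 (SE 0.22, 95% interval 0.97 to 1.96) or 2.76-fold, with an adjusted p of 0.0085 by limma. The exact two-sided permutation test gave p = 0.0079, the smallest that 5 against 5 libraries can give and one that all 18 miRNAs without overlap share, and p = 0.076 after adjustment over the 172 miRNAs, which does not pass 0.05. Within the 4 mice with both nuclei the ARC was higher by 1.34 in F12A, 0.98 in F13A, 1.58 in F41A and 1.56 in F42A. With these 4 mice alone and the mouse as a fixed block, the difference was 1.36 and the adjusted p 0.31 by limma, and 0 of 172 miRNAs passed, against 10 unadjusted. With 3 ARC libraries the difference was 1.47 (SE 0.24) and the adjusted p 0.0034 by limma. Without the PVH library of F42A it was 1.39 and the adjusted p was 0.099, so that no miRNA passed, against 25 unadjusted.

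The reads behind miR-7b-5p were few. It held 46, 74, 41, 103 and 9 reads in the ARC libraries, against 31, 16, 17, 25 and 12 reads in the PVH libraries. As a share of all miRNA reads this was 0.0974%, 0.134%, 0.0876%, 0.112% and 0.0397% in the ARC, against 0.0504%, 0.0560%, 0.0387%, 0.0455% and 0.0465% in the PVH. By this share, which no scale factor enters, the ARC library of F42A (95% Wilson interval 0.0209% to 0.0754%) fell inside the PVH range, while the 4 other ARC libraries lay above it. The intervals cover counting error only.

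miR-7a-5p was among the 5 miRNAs of highest mean level in both nuclei. It stood at 17.34, 17.70, 17.93, 17.69 and 17.27 in the ARC libraries, against 17.47, 17.08, 17.14, 16.88 and 16.30 in the PVH libraries. The groups overlapped through the PVH library of F12A. The difference was 0.61 (SE 0.26), with an adjusted p of 0.24 by limma and the ARC higher in 4 of 4 mice, and it was -0.34 under quantile normalization. With 3 ARC libraries, without those of F42A and F6A, it was 0.80 (SE 0.25, adjusted p = 0.069 by limma). The ratio of miR-7b-5p to miR-7a-5p reads within a library, chosen after the values were seen and independent of any scaling, was examined as a description. miR-7b-5p made up 0.795%, 0.608%, 0.373%, 0.564% and 0.593% of the miR-7 reads in the ARC libraries, against 0.283%, 0.341%, 0.251%, 0.330% and 0.394% in the PVH libraries. 4 ARC libraries lay above all PVH libraries, and that of F13A lay below the PVH library of F42A.

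**Figure D2:**
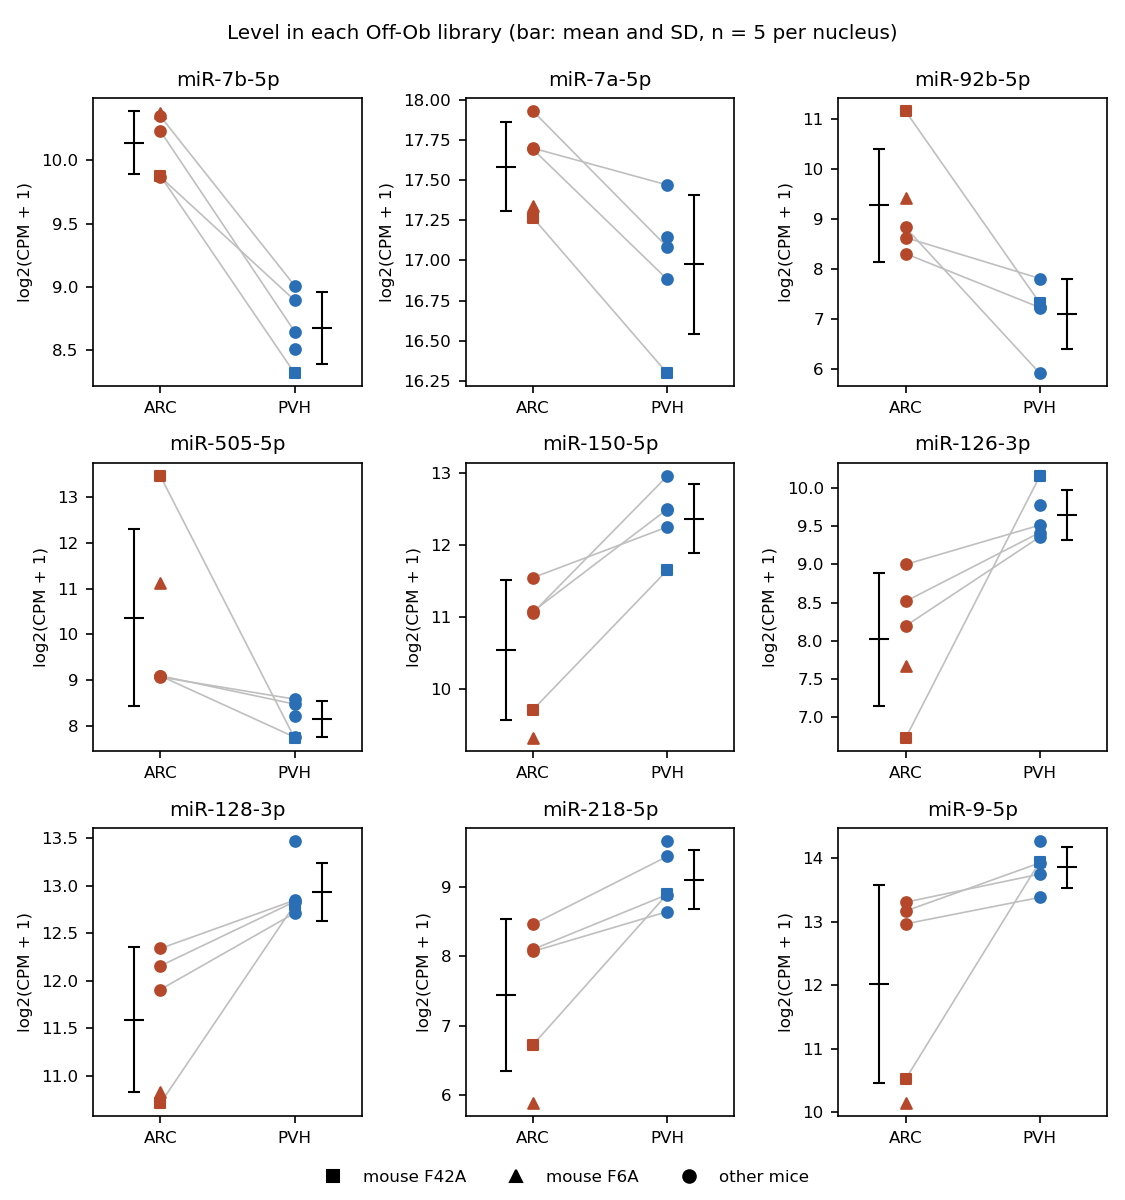
Level of 9 miRNAs, log2(CPM + 1), in each Off-Ob library, with the 5 ARC libraries on the left and the 5 PVH libraries on the right of each panel, a bar for the mean and SD, and a grey line between libraries of 1 mouse. The ARC libraries of F42A (squares) and F6A (triangles) lie close to the other ARC libraries for miR-7b-5p (9.88 and 10.37, against 9.87 to 10.35) and far from them for miR-505-5p (13.45 and 11.12, against 9.07 to 9.10).

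The groups did not overlap for 18 of the 172 miRNAs (10.5%). 6 of these were higher in the ARC (3.49%), among them miR-7b-5p, miR-92b-5p, miR-505-5p, let-7e-5p and miR-25-3p, and 12 were lower (6.98%). Apart from miR-7b-5p, none of them passed the adjusted threshold.

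miR-92b-5p, the 5p arm of a hairpin that acts in cortical progenitors of the mouse, stood at 9.44, 8.31, 8.84, 8.63 and 11.17 in the ARC libraries, against 7.23, 5.92, 7.24, 7.81 and 7.32 in the PVH libraries. The ARC library of F42A was the highest, and the lowest ARC library still lay above the highest PVH library. The difference was 2.17 (SE 0.57, adjusted p = 0.10 by limma), from 18 to 34 reads in an ARC library and 2 to 14 reads in a PVH library. It was 1.49 (SE 0.40, adjusted p = 0.041 by limma) without the ARC libraries of F42A and F6A.

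miR-505-5p, the miRNA that the study followed up, stood at 11.12, 9.10, 9.10, 9.07 and 13.45 in the ARC libraries, against 7.76, 8.48, 8.23, 8.59 and 7.74 in the PVH libraries. All ARC libraries lay above all PVH libraries, but those of F6A and F42A lay far above the other 3. The reads were few, at 77, 31, 24, 46 and 107 in the ARC libraries and 13, 12, 14, 24 and 8 in the PVH libraries. The difference was 2.21 (SE 0.79, adjusted p = 0.20 by limma). The exact two-sided permutation p, which ignores the pairing by mouse, was 0.0079 before adjustment and 0.076 after adjustment over the 172 miRNAs. Within a mouse the ARC was higher by 1.33 in F12A, 0.62 in F13A, 0.48 in F41A and 5.71 in F42A. When those of F42A and F6A were left out, the difference was 0.93 (SE 0.28, adjusted p = 0.069 by limma).

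let-7e-5p stood at 15.48, 14.04, 14.26, 14.24 and 16.82 in the ARC libraries, against 14.02, 13.71, 13.60, 13.70 and 13.23 in the PVH libraries. The groups were parted by 0.02 between the ARC and PVH libraries of F12A. miR-25-3p, encoded within Mcm7, averaged 12.28 ± 0.25 in the ARC and 11.87 ± 0.09 in the PVH (SD, n = 5 each), a difference of 0.41 (adjusted p = 0.24 by limma) that was -0.16 in plain CPM.

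miR-150-5p, best known from lymphocytes, where it represses Myb, had the smallest p among the miRNAs lower in the ARC. It stood at 9.31, 11.06, 11.55, 11.08 and 9.71 in the ARC libraries, against 12.96, 12.25, 12.48, 12.50 and 11.65 in the PVH libraries. The groups did not overlap, and the ARC libraries of F6A and F42A were the lowest. The difference was -1.83 (SE 0.45, adjusted p = 0.10 by limma), with the ARC lower in 4 of 4 mice, at -1.90, -0.70, -1.42 and -1.94 in F12A, F13A, F41A and F42A. As a share of reads, miR-150-5p made up 0.0466%, 0.220%, 0.280%, 0.202% and 0.0353% in the ARC libraries, against 0.779%, 0.574%, 0.608%, 0.657% and 0.469% in the PVH libraries. When those of F42A and F6A were left out, the difference was -1.15 (SE 0.25) and passed, with an adjusted p of 0.019 by limma.

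miR-126-3p and miR-126-5p, the 2 arms of a hairpin of endothelial cells, were both below 0. miR-126-3p stood at 7.66, 9.0, 8.52, 8.19 and 6.72 in the ARC libraries, against 9.52, 9.42, 9.78, 9.36 and 10.16 in the PVH libraries. Its groups did not overlap, and its difference was -1.63 (SE 0.41, adjusted p = 0.10 by limma), from 1 to 29 reads in an ARC library and 23 to 44 in a PVH library. miR-126-5p, with 86 to 892 reads in an ARC library and 347 to 1117 in a PVH library, had a difference of -0.74 (SE 0.23, adjusted p = 0.15 by limma), and its groups overlapped. With 3 ARC libraries, miR-126-3p differed by -1.07 (adjusted p = 0.036 by limma) and miR-126-5p by -0.74 (adjusted p = 0.069 by limma).

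miR-128-3p, a neuron-enriched miRNA that dampens excitability, stood at 10.83, 12.16, 12.34, 11.91 and 10.71 in the ARC libraries, against 12.83, 12.85, 13.47, 12.71 and 12.80 in the PVH libraries. No ARC library reached the lowest PVH library. The difference was -1.35 (SE 0.35, adjusted p = 0.10 by limma), and -0.80 (SE 0.20, adjusted p = 0.036 by limma) without the ARC libraries of F42A and F6A. miR-218-5p, known from motor neurons, stood at 5.87, 8.46, 8.10, 8.07 and 6.72 in the ARC libraries, against 9.45, 8.90, 9.67, 8.65 and 8.90 in the PVH libraries. Its groups did not overlap, and its difference of -1.68 (SE 0.51, adjusted p = 0.15 by limma) rested on 1 to 23 reads in an ARC library and 16 to 42 in a PVH library. miR-9-5p, which acts in neural progenitors and neurons, stood at 10.14, 13.17, 12.97, 13.31 and 10.52 in the ARC libraries, against 13.93, 13.38, 14.27, 13.75 and 13.95 in the PVH libraries. Its difference was -1.85 (SE 0.64, adjusted p = 0.17 by limma) with all libraries and -0.71 (SE 0.20, adjusted p = 0.057 by limma) without those of F42A and F6A. miR-3102-3p, encoded within Arhgef17, averaged 10.56 ± 0.27 in the ARC and 11.30 ± 0.29 in the PVH (SD, n = 5 each), and its groups did not overlap at a difference of -0.74 (SE 0.21, adjusted p = 0.15 by limma).

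The 8 miRNAs that passed without the ARC libraries of F42A and F6A were miR-7b-5p, miR-92b-5p and miR-211-5p, higher in the ARC, and miR-150-5p, miR-126-3p, miR-128-3p, miR-1224-3p and miR-490-3p, lower in the ARC. miR-211-5p, encoded in Trpm1, stood at 10.17, 10.23, 9.94, 11.45 and 9.03 in the ARC libraries, against 9.45, 9.70, 9.28, 9.33 and 8.90 in the PVH libraries. Only the ARC library of F42A lay inside the PVH range, and the difference was 0.83 (SE 0.39, adjusted p = 0.27 by limma) with all libraries and 1.20 (SE 0.31, adjusted p = 0.036 by limma) without the 2. miR-1224-3p and miR-490-3p were named after their values were seen. miR-1224-3p, encoded in Vwa5b2, stood at 10.98, 9.10, 9.68, 8.30 and 11.75 in the ARC libraries, against 10.48, 10.59, 10.42, 10.81 and 9.94 in the PVH libraries. The ARC libraries of F6A and F42A lay above the PVH range and the other 3 below it, so that the difference was -0.48 (SE 0.58, adjusted p = 0.60 by limma) with all libraries and -1.43 (SE 0.29, adjusted p = 0.014 by limma) without the 2. miR-490-3p, encoded in an intron of Chrm2, had 3, 0, 0, 1 and 0 reads in the ARC libraries, against 2, 3, 1, 5 and 3 reads in the PVH libraries. At 0 of 55117 reads a share of up to 0.00544% is allowed, which is above the 0.00325% measured in the PVH library of the same mouse, F12A, so no fold is given.

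The difference within each of the 4 mice was spread unequally. More than 1 log2 unit parted the nuclei for 25 miRNAs in F12A, 21 in F13A, 21 in F41A and 104 in F42A. The median difference stayed between -0.11 and 0.014 in the 4 mice. 14 of the 172 miRNAs (8.14%) were higher in the ARC of all 4 mice and 29 (16.9%) were lower.

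**Figure D3:**
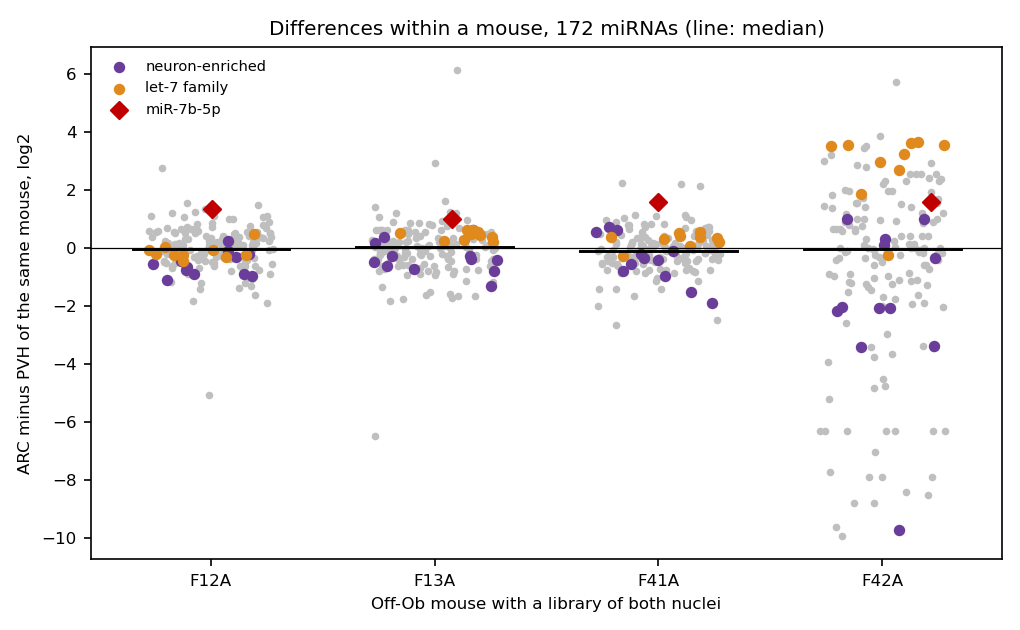
ARC minus PVH (log2, vertical axis) within each of the 4 Off-Ob mice with a library of both nuclei, 1 point per miRNA, with the median as a line. miR-7b-5p (diamonds) lies between 0.98 and 1.58 in every mouse, whereas the let-7 median is 3.36 in F42A and -0.23 to 0.44 in the other 3 mice.

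The let-7 family, which marks differentiated cells and represses Lin28 and Hmga2, held the most abundant miRNAs besides miR-7a-5p. 9 of its 10 members lay above 0, with a median difference of 1.07 beside -0.13 over all 172 miRNAs. None passed the adjusted threshold, and 5 of the 10 had an unadjusted p under 0.05 with a higher level in the ARC, beside 8.14% of all 172. Only 1 of the 10 was higher in the ARC of all 4 mice, also beside 8.14% of all 172. The most abundant, let-7c-5p, stood at 18.48, 16.81, 16.99, 17.28 and 19.74 in the ARC libraries, against 17.12, 16.57, 16.77, 16.90 and 16.18 in the PVH libraries. The ARC libraries of F42A and F6A were far above all others, and the other 3 were interleaved with the PVH libraries. let-7g-5p, with a difference of 0.69 (SE 0.27, adjusted p = 0.24 by limma), let-7f-5p with 1.26, let-7k with 1.09, let-7b-5p with 0.82, let-7d-5p with 0.93, let-7a-5p with 1.18 and miR-98-5p with 1.04 shared this order. let-7i-5p had a difference of -0.05 (SE 0.21). let-7a-5p was listed with only 18 to 31 reads in an ARC library and 6 to 20 in a PVH library. With 3 ARC libraries all 10 members were above 0 and the median was 0.35, beside -0.0076 over all miRNAs. Quantile normalization put let-7g-5p at -0.043, and with 3 mice, without F42A, and the mouse as a fixed block let-7d-5p was at -0.0088.

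The neuron-enriched list holds 12 measured miRNAs, and all of them lay below 0, beside 98 of all 172. The members are not independent, since miR-9, miR-132 and miR-138 each enter with both arms. miR-132-3p and miR-212-3p are also encoded within the same gene, 1700016P03Rik. Some were scarce, with 3 to 11 reads of miR-124-3p and 0 to 10 of miR-138-2-3p in an ARC library. The median difference of the list was -1.09, beside -0.13 over all 172. None passed the adjusted threshold, 3 had an unadjusted p under 0.05, namely miR-128-3p, miR-218-5p and miR-9-5p, and these were also the 3 whose groups did not overlap. Over all 172 miRNAs, 10.5% had such a p with a lower level in the ARC and 6.98% were lower with no overlap. 6 of the 12 were lower in the ARC of all 4 mice, beside 16.9% of all miRNAs. The summed reads of the list were 0.428% to 3.14% of an ARC library and 4.19% to 5.54% of a PVH library, and its summed level was 13.27 to 15.04 in the ARC and 15.15 to 15.67 in the PVH, so the ranges did not overlap. In the comparison with 3 ARC libraries, 10 of the 12 were below 0 and the median was -0.49. miR-132-3p and miR-212-3p, which share the seed AACAGUC and are induced by neuronal activity through CREB, belonged to the list. miR-132-3p stood at 8.55, 10.68, 11.20, 11.07 and 8.71 in the ARC libraries, against 11.23, 11.48, 11.09, 11.28 and 10.78 in the PVH libraries. Its difference was -1.14 (SE 0.55, adjusted p = 0.27 by limma), and -0.19 without the ARC libraries of F42A and F6A. miR-212-3p had no read in the ARC library of F42A, and without the 2 libraries its difference was -0.29 (SE 0.22). miR-132-5p, the other arm, had 2 to 10 reads in an ARC library and 4 to 16 in a PVH library, and a difference of -0.43 (SE 0.45).

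The imprinted Dlk1-Dio3 cluster of chromosome 12, a maternally expressed group of brain miRNAs, had 31 measured members, of which 23 lay below 0 and 8 above. The median was -0.45, beside -0.13 over all miRNAs, and none passed the adjusted threshold. 7 members had an unadjusted p under 0.05 with a lower level in the ARC, and 1, miR-409-3p, with a higher one (0.88, SE 0.36), which was named after its values were seen. Over all 172 miRNAs the shares were 10.5% lower and 8.14% higher. miR-487b-3p stood at 8.76, 11.03, 11.20, 10.61 and 9.52 in the ARC libraries, against 11.80, 11.85, 11.99, 11.23 and 11.30 in the PVH libraries. miR-541-5p stood at 10.87, 11.49, 11.27, 11.02 and 10.29 in the ARC libraries, against 11.58, 11.65, 11.95, 11.59 and 11.74 in the PVH libraries. Neither of these 2 had overlapping groups, with differences of -1.42 (SE 0.46) and -0.71 (SE 0.24) and an adjusted p of 0.15 each by limma. miR-410-3p differed by -1.38 (SE 0.44) and miR-380-3p by -2.22 (SE 0.72), and in mouse F12A both went the other way, at 0.19 and 0.38. The ARC libraries of F6A and F42A held 10 and 2 reads of miR-410-3p, against 30 to 55 in the other ARC libraries. For miR-380-3p they held 5 and 1, against 43 to 92. Without these libraries the differences were -0.76 (SE 0.29) and -1.01 (SE 0.32). In the comparison with 3 ARC libraries, 25 of 31 members were below 0 and the median was -0.27.

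**Figure D4:**
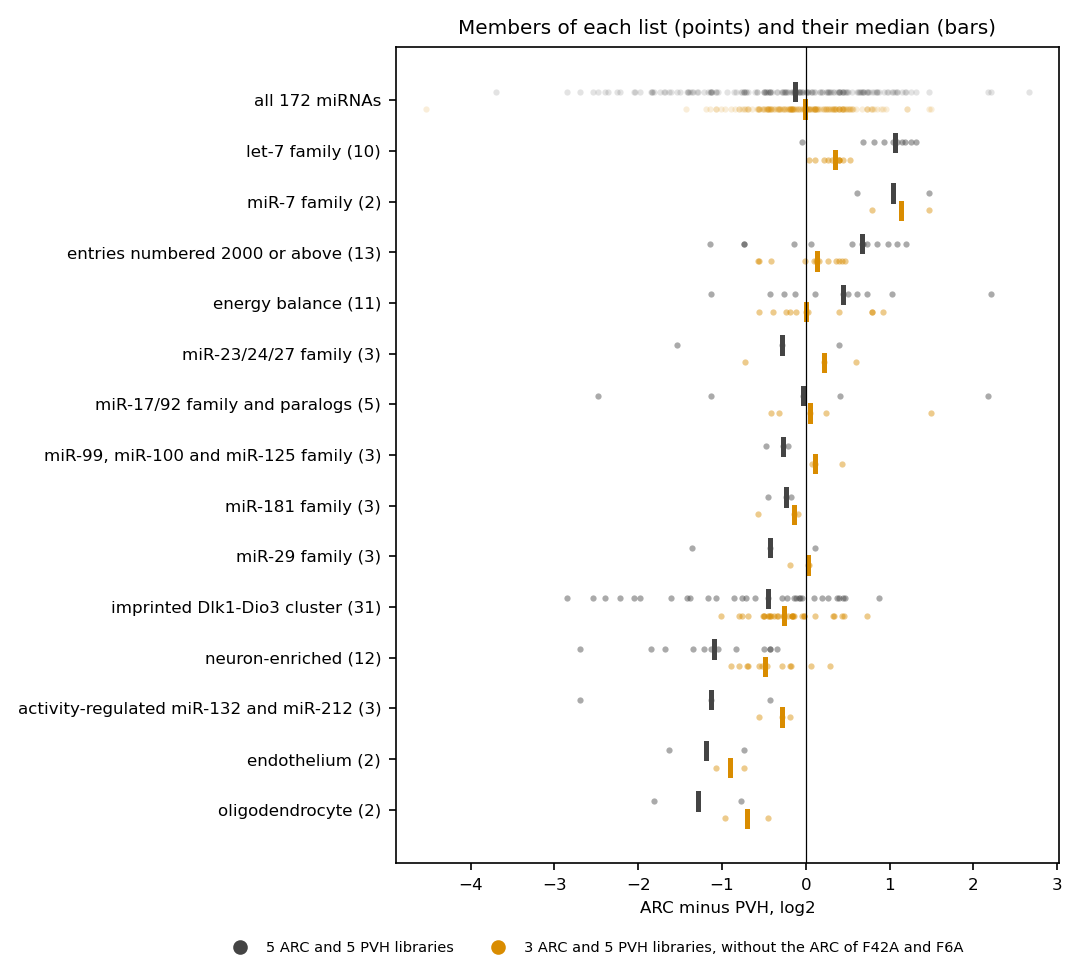
ARC minus PVH (log2, horizontal axis) of the members of 14 lists with at least 2 measured members and of all 172 miRNAs, with points for miRNAs and bars for medians, from all 10 libraries (grey) and without the ARC libraries of F42A and F6A (orange). The medians of the let-7 family (1.07 against 0.35) and of the neuron-enriched list (-1.09 against -0.49) lie nearer to 0 without these libraries, and that of the miR-7 family does not (1.04 against 1.13).

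In the remaining miRNA families and the energy balance list, no member passed the adjusted threshold with all libraries. In the energy balance list, chosen for earlier links to feeding or insulin, 7 of 11 members were above 0 with a median of 0.45. That median was 0.0012 without the ARC libraries of F42A and F6A, -0.11 in plain CPM and 0.07 in the deposited values. miR-342-3p of this list differed by 0.50 (SE 0.25). The miR-17/92 group had 2 of 5 members above 0, with a median of -0.04. Its member miR-92a-3p had no read in the ARC library of F42A, and without the ARC libraries of F42A and F6A it differed by -0.42 (SE 0.25). miR-19b-3p differed by -1.13 (SE 0.53) with all libraries. The miR-29 family had a median of -0.42, with miR-29c-3p at -1.36 (SE 0.69), miR-29b-3p at -0.42 and miR-29a-3p at 0.11, and the median was 0.026 without the 2 libraries. The 3 measured members of the miR-99, miR-100 and miR-125 family, miR-125a-5p (-0.27), miR-125b-5p (-0.48) and miR-99b-5p (-0.21), had positive differences without the 2 libraries. So did miR-26a-5p (-0.47, SE 0.44, with all libraries). The miR-181 family gave -0.46 for miR-181b-5p, -0.17 for miR-181c-5p and -0.24 for miR-181a-5p. In the miR-23/24/27 family miR-24-3p differed by 0.40 (SE 0.23), miR-27a-3p by -0.28 (SE 0.55), and miR-23a-3p had at most 8 reads in any library. miR-30c-5p differed by -1.69 (SE 0.84), and by -0.31 without the 2 libraries. miR-328-3p, among the 5 miRNAs of highest mean level in the PVH, averaged 15.60 ± 0.27 in the ARC and 15.59 ± 0.19 in the PVH (SD, n = 5 each), with a 95% interval of the difference of -0.42 to 0.44. Of the 13 entries numbered 2000 or above, late additions to the catalogue of which many are poorly characterised, 9 were above 0 with a median of 0.67, and the median was 0.13 without the 2 libraries. miR-5105 differed by 1.09 (SE 0.52), miR-6540-5p by 1.19 (SE 0.58) and miR-5126 by 0.85 (SE 0.45).

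Markers of other cell types were few among the 172 miRNAs. No listed miRNA marks the ARC or the PVH as such, so the capture could not be checked against the labelled nucleus. The 2 endothelial arms of miR-126 had a median difference of -1.19 with all libraries and -0.91 with 3 ARC libraries, and summed to 12.84 to 13.38 in the ARC and 13.34 to 14.22 in the PVH on the log2 scale. The oligodendrocyte markers miR-219-2-3p (-0.77, SE 0.43) and miR-338-3p were scarce, with 0 to 16 reads in an ARC library and 2 to 20 in a PVH library. miR-146a-5p, the only measured member of the list for microglia and other immune cells, differed by 0.43 (SE 0.32). miR-150-5p, which that list does not hold, differed in the other direction, at -1.83. miR-211-5p was the only measured member of the list for ependyma and choroid plexus. The list for red blood cells and that for pituitary had 0 measured members. The part of these cell types in the differences above was not tested.

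The same comparison in Off-C mice used 6 libraries of each nucleus from the same 2 pools. There 11 of 172 miRNAs (6.40%) passed an adjusted p of 0.05 by limma, 4 higher and 7 lower in the ARC, and the median SE of a difference was 0.29 in Off-C mice, beside 0.44 in Off-Ob mice and 0.26 in Off-Ob mice without the ARC libraries of F42A and F6A. miR-7b-5p differed by 1.47 (SE 0.22) in Off-Ob mice and by 1.52 (SE 0.26) in Off-C mice. miR-92b-5p differed by 2.17 in Off-Ob mice and 2.11 in Off-C mice, miR-150-5p by -1.83 and -1.61, and miR-211-5p by 0.83 and 1.42 in the same order. In Off-C mice all 10 let-7 members lay above 0, with a median of 0.26 beside 0.089 over all 172 miRNAs. Of the neuron-enriched list 9 members lay below 0 and 3 above (median -0.58), and of the Dlk1-Dio3 cluster 25 below and 6 above (median -0.25). The differences had the same sign in both groups for 128 of 172 miRNAs (74.4%). Across the miRNAs, which share libraries, pools and scaling and are not independent, Pearson's r was 0.61 with all Off-Ob libraries and 0.76 without the ARC libraries of F42A and F6A.

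The ARC minus PVH difference itself was compared between Off-Ob and Off-C mice by an interaction term in limma over 22 libraries, and 0 of 172 miRNAs (0%) passed an adjusted p of 0.05. At an unadjusted p under 0.05 there were 4 (2.33%), all with an adjusted p of 0.69. They were miR-505-5p with an interaction of 1.99 (SE 0.89), miR-541-5p with -0.64, miR-487b-3p with -1.04, and miR-29c-5p with -0.59, the last named after its values were seen. The ARC minus PVH difference of miR-505-5p was 2.21 in Off-Ob mice and 0.22 in Off-C mice. miR-29c-5p differed by -0.50 (SE 0.20) in Off-Ob mice, at -0.43, -0.47, -0.40 and -0.44 within F12A, F13A, F41A and F42A, and by 0.09 (SE 0.23) in Off-C mice. Its reads were few, at 11, 21, 15, 28 and 3 in the Off-Ob ARC libraries and 30, 16, 25, 27 and 16 in the PVH libraries. The value of F42A rests on 3 ARC reads, so the likeness of these values is closer than such counts can resolve. Without the ARC libraries of F42A and F6A, 0 miRNAs had an unadjusted interaction p under 0.05.

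**Figure D5:**
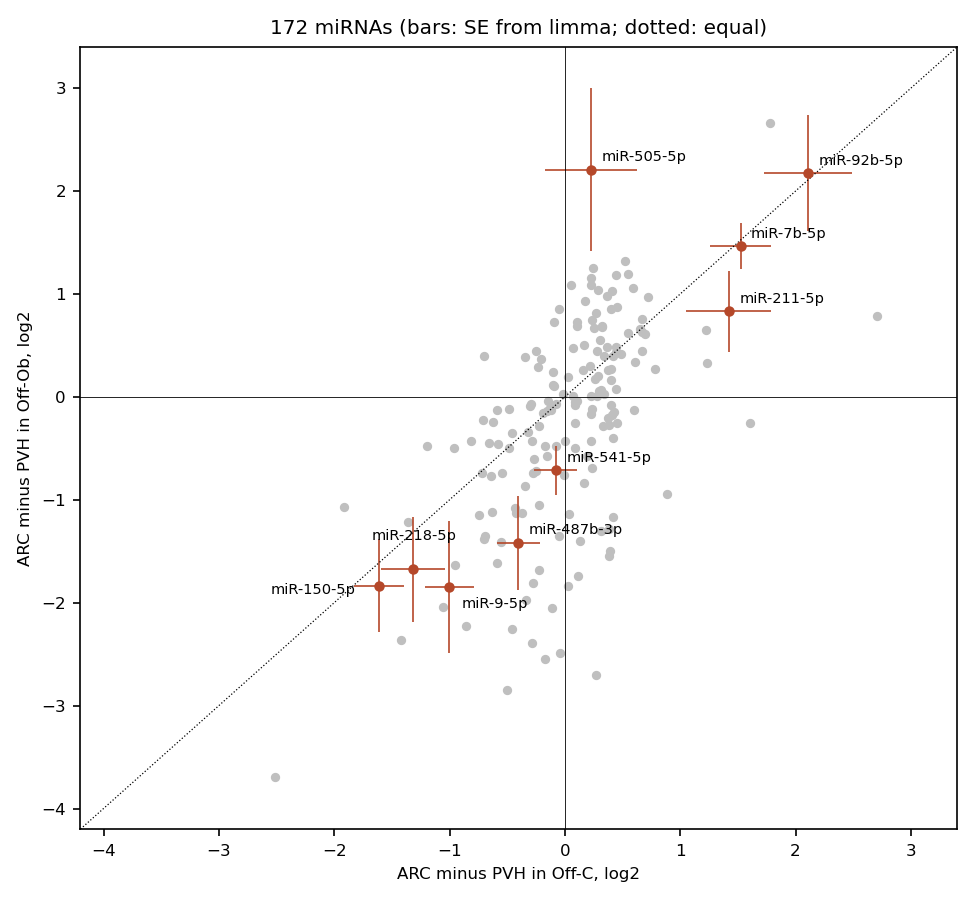
ARC minus PVH in Off-Ob mice (log2, vertical axis) against the same difference in Off-C mice (log2, horizontal axis) for 172 miRNAs, with SE bars for 9 of them and a dotted line of equality. miR-7b-5p (1.47 and 1.52), miR-92b-5p (2.17 and 2.11) and miR-150-5p (-1.83 and -1.61) lie near the line, and miR-505-5p (2.21 and 0.22) lies above it.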

How the data were processed

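The measurements are small RNA reads from ARC and PVH tissue cut by laser capture. The authors made TruSeq Small RNA libraries for Illumina sequencing, mapped reads with Bowtie 1.2.3 to GRCm38 and used edgeR 3.36.0. The deposited log2 values are log2(CPM + 1), in which the authors scaled each nucleus on its own. The miRNA annotation and the rule for reads with several matches are not given in the sources used here. Each column's group comes from the deposited tables and its mouse from the identifier sheet beside them.

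Whole reads were recovered (all 3784 values within 0.01 of a whole read) and rescaled by trimmed means over all 22 libraries, written out by hand. The filter, a CPM of 1 or more in 5 of the 10 Off-Ob libraries, left out none of the 172 miRNAs. limma 3.58.1 in R 4.3.3 (eBayes with trend, mouse as a random block by duplicateCorrelation, consensus correlation -0.025) compared ARC with PVH on log2(CPM + 1), with Benjamini-Hochberg adjustment over 172 miRNAs. Fold changes are on that scale. A miRNA without a read stands at 0.0 there, whereas 1 read in the ARC library of F42A stands at 6.72. A library without a read can thus enlarge the difference of a scarce miRNA. For miR-212-3p it was -2.70 with all libraries and -0.29 without the ARC libraries of F42A and F6A. Single miRNAs were also tested by exact permutation, two-sided. The interaction of nucleus and maternal group was fitted over 22 libraries. A mouse's 2 libraries come from 1 animal, and the correlation of their deviations was -0.15, -0.06, -0.04 and 0.14 in F12A, F13A, F41A and F42A. Simulated reads with known changes were also put through the limma fit. They took the levels and spread of the PVH libraries for both nuclei and drew each library independently, with no mouse effect. No simulated library stood apart, so they cannot show how the fit behaves with the ARC libraries of F42A and F6A.

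Where no read was seen, up to 3 reads are allowed, or 0.0132% in the shallowest Off-Ob library. Read shares have 95% Wilson intervals, which cover counting error only, since amplified reads carry no molecular identifier. The members, lists and alternatives were chosen with earlier results of these data known. The miRNAs named are those past the threshold in each direction (if none, the 5 of smallest p), the 5 of highest mean in each nucleus, miR-505-5p, every let-7 member, the 4 of smallest p of each list, and the 3 of smallest interaction p. 4 others were named after their values were seen. Alternatives were other scalings, pseudocounts of 0.5, 10 and 100, filters, limma options, library weights, limma-voom, other blocks and left-out libraries. Host genes came from GENCODE vM21, and figures from matplotlib 3.10.9 in Python 3.11.15. An ARC library of mouse F14A and a PVH one of mouse F6A, named in the identifier sheet, were not analysed here.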

Additional observations from a re-analysis of the deposited data

Results flagged for a closer look

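Of 124 groups of 5 libraries examined, 12 held a library whose gap to its nearest neighbour exceeded 0.71 of the group's range, Dixon's 95% limit. Chance alone gives about 1 in 20 such groups. In the ARC, the library of F42A stood apart for miR-212-3p, miR-92a-3p and miR-338-3p (each listed at 0, a level of 0.0), for miR-146a-5p (9.52) and for the number of miRNAs without a read (20). The ARC library of F6A stood apart for miR-24-3p (15.17). In the PVH, the library of F14A stood apart for miR-128-3p (13.47) and miR-26a-5p (10.3), that of F42A for miR-24-3p (13.6), that of F41A for miR-23a-3p (7.01), and that of F13A for miR-338-3p (5.92) and for the number of miRNAs without a read (1). That number was 0 in every other Off-Ob PVH library, so the gap equals the range. Dixon's limit cannot judge such tied counts, though this group is among the 12. Levels are log2(CPM + 1).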

How the results depend on the processing

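miR-7b-5p kept its direction under all 28 alternatives (0.90 to 1.65, adjusted p 5.4e-05 to 0.31 by limma) and passed in 25 of them. These are not separate checks. The fit without a filter repeats the main fit, since the filter left out no miRNA, and the eBayes options cannot change the difference. The lowest adjusted p came from the fixed replicate block of the 3 mice without F42A, chosen after seeing the data. The number of miRNAs past the threshold was 1 in the main comparison and without the replicate block. It was 0 with the 4 paired mice and the mouse as a fixed replicate block, 0 in plain CPM, 10 with library weights and 8 without the ARC libraries of F42A and F6A. Among alternatives chosen after seeing the data it was 14 with a fixed replicate block of the 3 mice without F42A, and 15 in the deposited values. Leaving out 1 library at a time gave 0 to 1. The interaction stayed at 0 under every alternative run. The planned edgeR and DESeq2 tests were not run on the recovered reads, on which limma-voom was run.

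List medians moved by more than the spread between libraries as follows. Without the ARC libraries of F42A and F6A they were 0.35 for let-7, 0.0012 for energy balance and 0.13 for entries numbered 2000 or above, with library weights 0.34, -0.066 and 0.043, and with the fixed replicate block of 3 mice 0.19, -0.10 and -0.0047, with 0.31 for the miR-99, miR-100 and miR-125 family. In plain CPM they were 0.47 for miR-7, -1.02 for Dlk1-Dio3, -0.83 for miR-181, -0.87 for the miR-99, miR-100 and miR-125 family, -0.63 for miR-17/92, -0.11 for energy balance, -1.76 for endothelium and 0.11 for entries numbered 2000 or above. In the deposited values they were 0.65 for miR-7, -0.83 for Dlk1-Dio3, -0.43 for miR-17/92, 0.067 for energy balance and -1.57 for endothelium. Quantile normalization gave 0.65 for miR-7 and 0.24 for energy balance, and a CPM minimum of 100 gave 0.11 for energy balance. Leaving out 1 library at a time gave 0.12 to 0.51 for energy balance.

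The direction of some named miRNAs turned, among them miR-29c-3p, let-7d-5p, miR-5126 and let-7g-5p, which differed by -1.36, 0.93, 0.85 and 0.69 with all libraries. Without the ARC libraries of F42A and F6A the values were 0.43 for miR-125a-5p, 0.12 for let-7i-5p, 0.039 for miR-29b-3p, 0.24 for miR-26a-5p, 0.079 for miR-125b-5p, 0.11 for miR-99b-5p and 0.60 for miR-27a-3p. Library weights gave 0.33, 0.13, 0.15, 0.032, 0.13 and 0.49 for miR-125a-5p, let-7i-5p, miR-26a-5p, miR-125b-5p, miR-99b-5p and miR-27a-3p. The fixed replicate block of 3 mice gave 0.39, 0.25, 0.37, 0.15, 0.31 and 0.78 for these 6, 0.14 for miR-29c-3p, 0.099 for miR-29b-3p, -0.0088 for let-7d-5p and -0.0047 for miR-5126. The fixed replicate block of 4 mice gave -0.00301 for miR-328-3p, 0.028 for miR-125a-5p, 0.12 for let-7i-5p, 0.072 for miR-181a-5p and 0.30 for miR-27a-3p. Plain CPM gave -0.56 for miR-328-3p, -0.46 for miR-29a-3p, -0.16 for miR-25-3p, -0.16 for miR-24-3p, -0.059 for miR-342-3p and -0.13 for miR-146a-5p. The deposited values gave -0.38 for miR-328-3p and -0.27 for miR-29a-3p. Quantile normalization gave -0.34 for miR-7a-5p, -0.043 for let-7g-5p, -0.54 for miR-328-3p and 0.032 for miR-181c-5p. Trimmed means of the 10 Off-Ob libraries gave 0.029 for let-7i-5p. Leaving out 1 library at a time gave -0.095 to 0.13 for miR-328-3p, -0.17 to 0.050 for let-7i-5p and -0.68 to 0.12 for miR-27a-3p. The cause was not tested. Depth limits the scarce miRNAs most, since 1 read in the ARC library of F42A is worth 104 CPM.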
